A study of Mus musculus with 3 samples.

Results

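Genes of the cAMP route, 10 in number, were read in LKS cells of mouse bone marrow: Gnas, Prkaca, Prkar1a, Creb1, Crebbp, Crtc1, Crtc2, Crtc3, Sik1 and Sik2. They were listed by symbol, and all 10 are among the 24982 gene symbols measured. LKS cells lack lineage markers and carry Kit and Sca1 on their surface, a gate that holds haematopoietic stem cells and early progenitors, here sorted by flow cytometry. One label field calls them LLP cells instead, without saying what that means. One library (KO) came from CD73-/- recipient mice, which lack the cell-surface enzyme that makes adenosine from AMP, and 2 libraries (WT) came from WT recipients. With 1 KO library, no difference from WT has a replicate check on the KO side. The labels give no age, strain or treatment and do not state if the cells derive from donor or host, how many animals each library holds or if the WT pair are separate animals, so the spread between the WT libraries may be technical. The list was drawn up with values of these libraries known, including those of Crtc2. The KO and WT values of the 10 genes are therefore a description, without a test.

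Adenosine that binds its Gs-coupled receptors makes the G protein alpha subunit encoded by Gnas switch on adenylyl cyclase, which produces cAMP. cAMP frees the catalytic subunits of protein kinase A from their regulatory subunits, and the free kinase phosphorylates the transcription factor CREB. The same signal holds back the SIK kinases, which otherwise phosphorylate the CRTC coactivators and keep them in the cytoplasm, so that CRTC proteins enter the nucleus and join CREB at cAMP response elements.

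The libraries were shallow. The gene-level total was 264704 counts in KO, 361638 in WT replicate 1 and 324954 in WT replicate 2, with 8474, 9501 and 9519 genes detected in that order of libraries. An upper limit of 3 counts for a gene with 0 counts equals 11.3 CPM (counts scaled to the library total) in KO, 8.30 in WT replicate 1 and 9.23 in WT replicate 2. Nt5e, which encodes CD73, had 0 counts in all 3 libraries, so it could not check the genotype labels. The gate genes were detected. Kit had 147 counts (555 CPM) in KO, against 187 (517 CPM) and 207 (637 CPM) in WT replicates 1 and 2. Ly6a, which encodes Sca1, had 36 counts (136 CPM), against 60 (166 CPM) and 19 (58.5 CPM). The 8 gate and stem cell markers summed to 1462 CPM in KO, against 2088 and 2080 CPM in WT. Of these, Cd34, Meis1, Gata2, Hlf and Mecom were below both WT libraries in KO, and Mecom had 0 counts there, against 31 and 21. Hlf was close to WT replicate 1 (83.1 CPM in KO, against 85.7 and 105). Procr was above both WT libraries (49.1 CPM, against 38.7 and 43.1), and Kit and Ly6a lay between them. The 8 mature neutrophil markers summed to 378 CPM in KO, against 827 and 1108 CPM in WT, with 7 of 8 above 0 in KO, against 8 and 7. The 8 stromal and endothelial markers summed to 132 CPM in KO, against 252 and 292 CPM in WT. Pdgfra, Lepr, Cdh5 and Col1a1 were at 0 in every library. The WT sums came from Pdgfrb, with 1 count in KO, against 39 and 33, and Pecam1, with 26, against 52 and 62. Cxcl12 ran the other way, with 8 counts in KO, against 0 and 0. The 7 B lineage markers summed to 7.56 CPM in KO, against 16.6 and 64.6 CPM in WT, with Cd79a, Ms4a1 and Ebf1 at 0 throughout. Most of the WT sums was Cd79b, with 0 counts in KO, against 5 and 17. The KO sum was Pax5 alone, with 2 counts, against 1 and 2. The 8 macrophage and dendritic cell markers summed to 234 CPM in KO, against 119 and 369 CPM. The 8 erythroid markers summed to 518, against 420 and 129 CPM, and the 7 T and NK lineage markers to 155, against 194 and 105 CPM. Nearly all of the T and NK sums was Nkg7 (155 CPM in KO, against 188 and 98.5), with Cd3e, Cd3g, Klrb1c and Cd8a at 0 throughout. The part of these cells in the values below was not tested. In bulk libraries, fewer cells of a type and less RNA per cell cannot be told apart.

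Across the 10 genes the KO library stood outside the WT pair in both directions. Crtc2 had 0 counts in KO and near-equal CPM in both WT libraries, Sik2 was counted in KO alone, Prkaca was lowest in KO, and Prkar1a was highest there. KO CPM lay below both WT libraries for 2 of the 10 genes (Prkaca and Crtc2), where 38% of the 9078 genes with at least 10 counts over the 3 libraries did so. It lay above both for 3 (Prkar1a, Crtc1 and Sik2), against 30.6% of those genes, and between them for 5 (Gnas, Creb1, Crebbp, Crtc3 and Sik1), against 31.4%. The WT libraries themselves lay more than 2-fold apart (CPM plus 1) for 6 of the 10 genes, against 56.0% of the same 9078 genes.

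**Figure D1:**
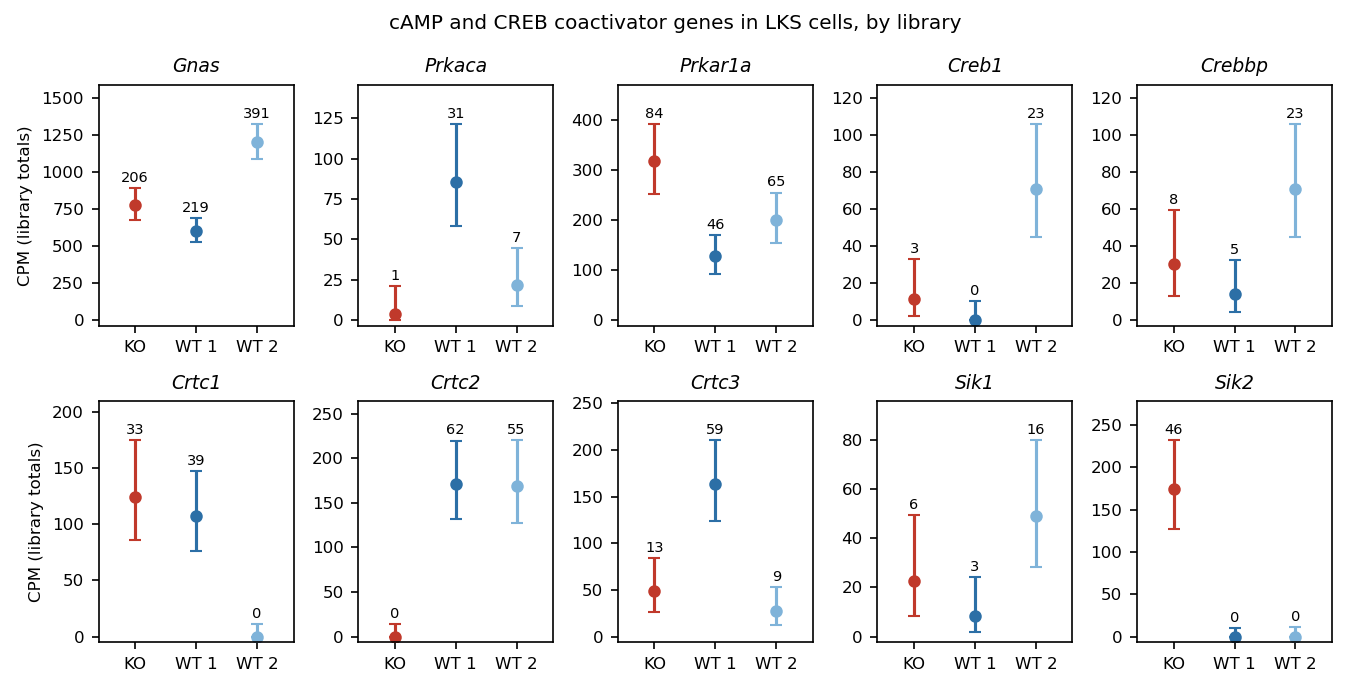
Level of each of the 10 genes in CPM (counts scaled to the library total, linear axis) in the KO library and the 2 WT libraries (WT 1 and WT 2). Points are single libraries, bars are exact 95% Poisson intervals that cover counting error only, and the number printed over each bar is the count. Crtc2 has 0 counts in KO, Sik2 has 46 counts in KO and 0 in both WT libraries, and for Crtc1, Crtc3, Creb1 and Crebbp the WT points lie far apart.

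Gnas, the Gs alpha subunit, was the best measured of the 10 genes. It had 206 counts (778 CPM) in KO, against 219 (606 CPM) and 391 (1203 CPM) in WT replicates 1 and 2. KO lay between the WT libraries, and WT replicate 1 was 0.503 times WT replicate 2 (95% interval 0.425 to 0.595, counting error only). The ratio of KO to the pooled WT counts was 0.876 (0.744 to 1.03). Gnas lies on the plus strand of chromosome 2 (174284320 to 174346744, GRCm38.p6) and has 12 transcript rows, whose counts repeat shared reads and reached down to 0 for single transcripts in every library. On the opposite strand it shares 1469 exon bases with the protein-coding gene Gm20721, not analysed here, and 988 with the antisense transcript Nespas, which had 0 counts in each library.

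Protein kinase A was measured through its catalytic subunit gene Prkaca and its regulatory subunit gene Prkar1a, and the pair differed in direction. Prkaca had 1 count (3.78 CPM) in KO, against 31 (85.7 CPM) and 7 (21.5 CPM) in WT. With a single KO count, its ratio to pooled WT was 0.0683, with an interval of 0.00168 to 0.404. Its WT libraries were 3.98-fold apart (1.72 to 10.7), so KO lay below a wide WT range. Prkar1a, which holds the catalytic subunits inactive until cAMP binds, had 84 counts (317 CPM) in KO, against 46 (127 CPM) and 65 (200 CPM) in WT. KO was above both WT libraries, at 1.96 times the pooled WT level (1.46 to 2.63), and the WT mean was 164 ± 51.5 CPM (SD, n = 2).

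On deposited FPKM, which allow for transcript length and were summed here over a gene's transcripts, the regulatory genes Prkar1a, Prkar1b, Prkar2a and Prkar2b together came to 160 in KO, against 65.2 and 85.0 in WT. The 2 catalytic genes Prkaca and Prkacb together came to 13.3 FPKM in KO, against 43.8 and 74.2 in WT. KO had the highest regulatory sum and the lowest catalytic sum of the 3 libraries. Part of the regulatory sum was Prkar2b, at 60.2 FPKM in KO, against 24.1 and 21.5 in WT. Its counts differed far less (83.1 CPM, against 69.1 and 61.5), so the size of the regulatory difference depends on the measure. The WT libraries differed in which catalytic gene prevailed: Prkaca made up 14.1% of the sum in KO, against 85.8% in WT replicate 1 and 12.8% in WT replicate 2. Prkacb had 12 counts in KO, against 9 and 84 in WT. The coding sequences of these paralogs share an identical run of 34 bases, shown because reads inside it cannot be assigned to either gene: 
Prkaca and Prkacb: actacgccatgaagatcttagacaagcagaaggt

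The sequences 250 bases before to 50 after annotated starts (RefSeq, GRCm38.p6) were searched for the full cAMP response element TGACGTCA and for its 5-letter core TGACG, on both strands; each full element also counts as a core. The table held 17 windows for 8 of the 10 genes, and Crtc2 and Sik1 have no entry in it. The full element was in 2 overlapping windows of 1 of the 8 genes, Prkar1a, and in 2.03% of all 27025 genes with a window. The core was in windows of 4 of the 8 (Gnas, Prkaca, Prkar1a and Sik2), and in 23% of all genes. All 27025 genes had 32851 windows, so the 8 genes had more windows each and the shares by gene are not like for like. By window, the core was in 8 of 17, against 20.8% of all windows, and the full element in 2 of 17, against 1.79%. Some of the 17 windows overlap and repeat the same site, so no excess is read from these shares. One of these Prkar1a windows, the Sik2 window and a Prkaca window are shown because they hold a match and KO lay outside the WT pair for these genes. The window of Crtc1, for which KO also lay outside the pair, holds neither motif and is not shown. Capitals mark the full element in Prkar1a and the cores in the others. Prkar1a is at chr11:109650699-109650998 (plus strand), Sik2 at chr9:51009024-51009323 (minus strand) and Prkaca at chr8:83972728-83973027 (plus strand). A match is only a match of letters.
Prkar1a: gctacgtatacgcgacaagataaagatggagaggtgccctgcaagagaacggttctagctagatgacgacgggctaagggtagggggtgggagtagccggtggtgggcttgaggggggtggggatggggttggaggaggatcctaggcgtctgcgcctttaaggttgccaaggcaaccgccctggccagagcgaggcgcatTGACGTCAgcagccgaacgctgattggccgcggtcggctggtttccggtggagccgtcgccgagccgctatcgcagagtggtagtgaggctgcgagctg
Sik2: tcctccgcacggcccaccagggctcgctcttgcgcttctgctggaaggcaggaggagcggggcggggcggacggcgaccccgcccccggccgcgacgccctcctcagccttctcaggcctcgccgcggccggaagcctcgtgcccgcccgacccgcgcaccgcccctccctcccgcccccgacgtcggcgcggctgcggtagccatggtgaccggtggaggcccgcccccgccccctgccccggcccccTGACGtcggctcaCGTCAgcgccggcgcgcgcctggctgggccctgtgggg
Prkaca: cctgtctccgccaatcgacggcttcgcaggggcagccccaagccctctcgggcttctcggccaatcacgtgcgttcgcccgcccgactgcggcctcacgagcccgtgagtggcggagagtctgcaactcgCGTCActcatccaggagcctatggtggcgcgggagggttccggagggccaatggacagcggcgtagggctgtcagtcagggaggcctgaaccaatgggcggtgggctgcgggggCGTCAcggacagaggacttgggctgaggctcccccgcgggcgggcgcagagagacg

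The factor and its acetyltransferase partner had few counts in KO and WT replicate 1 and more in WT replicate 2. Creb1, the gene of CREB itself, had 3 counts (11.3 CPM) in KO, against 0 and 23 (70.8 CPM) in WT. KO lay between the WT libraries, and its ratio to pooled WT was 0.338 (0.0650 to 1.12). Crebbp, which encodes the acetyltransferase that binds phosphorylated CREB, had 8 counts (30.2 CPM) in KO, against 5 (13.8 CPM) and 23 (70.8 CPM) in WT. Both genes were highest in WT replicate 2, with KO inside the WT range. Creb1 is on chromosome 1 (64532794 to 64604548) and Crebbp on chromosome 16 (4081334 to 4213957), both of GRCm38.p6.

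The CRTC coactivators gave a different mixture in each library. Crtc2, on chromosome 3 (90253858 to 90264125, plus strand), had 0 counts in KO, against 62 (171 CPM) and 55 (169 CPM) in WT. The WT libraries lay close together in CPM, at 170 ± 1.55 CPM (SD, n = 2). That SD is far narrower than counting error, so it is no measure of the spread between replicates. The exact intervals for counting error were 131 to 220 CPM in WT replicate 1 and 128 to 220 CPM in WT replicate 2. In FPKM summed over transcripts the WT libraries stood further apart, at 56.5 and 73.1. KO, with its floor set at 3 counts, was 15.0-fold lower than pooled WT in CPM. That value leaves out counting error in WT and is no bound. The exact interval for the ratio of KO to pooled WT, which covers counting error in both, was 0 to 0.0831. All 3 Crtc2 transcript rows were at 0 in KO, whereas they held 54 to 62 counts in WT replicate 1 and 55 each in WT replicate 2. Crtc1, on chromosome 8 (70382352 to 70439702), had 33 counts (125 CPM) in KO, against 39 (108 CPM) and 0 in WT. KO was close to WT replicate 1, and WT replicate 2 stood apart. Crtc3, on chromosome 7 (80586627 to 80688948), had 13 counts (49.1 CPM) in KO, against 59 (163 CPM) and 9 (27.7 CPM) in WT. Here KO was close to WT replicate 2, and the WT libraries were 5.89-fold apart (2.90 to 13.5).

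In FPKM the CRTC genes summed to 32.0 in KO, against 108 and 78.6 in WT. Crtc2 made up 0% of that sum in KO, against 52.4% and 93.1% in WT, so it was the leading CRTC gene of both WT libraries. Crtc1 made up 69.6% in KO, against 17.7% and 0% in WT, and Crtc3 30.4%, against 29.8% and 6.95%. The longest identical runs between the coding sequences of the CRTC genes (GENCODE M21) were 26 bases for Crtc1 and Crtc2, 17 for Crtc2 and Crtc3 and 11 for Crtc1 and Crtc3. The runs of 26 and 17 bases are shown to let the extent of shared sequence be judged; the longer starts at base 67 of the Crtc1 and base 103 of the Crtc2 coding sequence, and the other at base 490 of Crtc2 and base 463 of Crtc3.
Crtc1 and Crtc2: gaggagacggcggccttcgaggaggt
Crtc2 and Crtc3: tctgcacttaacaggac

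**Figure D2:**
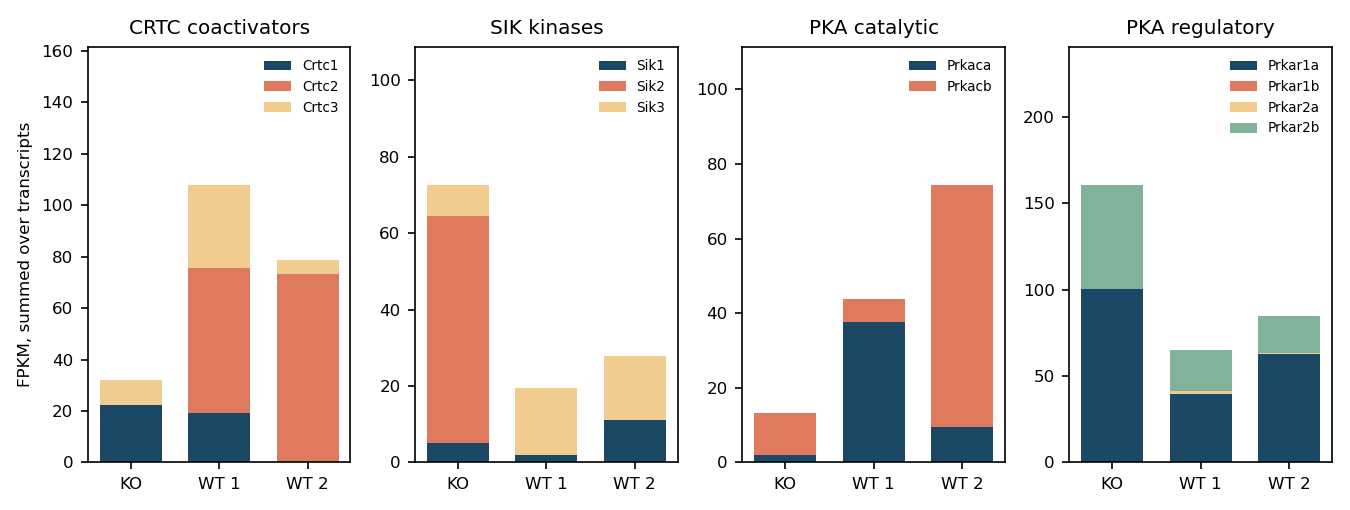
Deposited FPKM summed over a gene's transcripts (linear axis) for the CRTC coactivators, the SIK kinases and the catalytic and regulatory subunits of protein kinase A, stacked by gene, in KO, WT 1 and WT 2; each bar is 1 library. The CRTC bar is lowest in KO (32.0) and holds no Crtc2, and the SIK bar is highest in KO (72.4), where Sik2 makes up 82.1%.

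Of the SIK kinases, Sik1, itself a known CREB target, had 6 counts (22.7 CPM) in KO, against 3 (8.30 CPM) and 16 (49.2 CPM) in WT. KO lay between the WT libraries. Sik2 had 46 counts (174 CPM) in KO, against 0 and 0 in WT, which makes KO at least 19.9-fold higher when each WT library is given 3 counts. Sik1 lies on chromosome 17 (31844248 to 31855804) and Sik2 on the minus strand of chromosome 9 (50889644 to 51009132). Exons of Sik2 overlap those of Ppp2r1b on the opposite strand over 1429 bases. No source used here says that counting used strand, so reads inside these shared bases may not be separable. Ppp2r1b, a scaffold subunit of a protein phosphatase, had 9 counts in KO, against 23 and 18 in WT. Sik3, the remaining SIK gene, had 13 counts in KO, against 40 and 34 in WT. The SIK genes summed to 72.4 FPKM in KO, against 19.5 and 27.7 in WT, of which Sik3 made up 10.9%, against 90.6% and 60.5%. The longest identical run between the Sik2 and Sik3 coding sequences was 19 bases and that between Sik1 and Sik2 was 14.

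Genes with a level of 0 in one library were common at this depth. Of the 5425 genes whose highest count was 20 to 99, 18.5% were at 0 in at least 1 library, and so were 4 of the 8 members in that range (Creb1, Crtc1, Crtc2 and Sik2). A count of 0 in KO alone, as for Crtc2, was found in 9.05% of the 5425 genes, against 2.88% for WT replicate 1 alone and 3.28% for WT replicate 2 alone. A count above 0 in KO alone, as for Sik2, was found in 0.811%, against 1.16% and 1.36% for the WT libraries. Among genes with at least 50 counts in both WT libraries, 7 of 1104 (0.634%) had 0 counts in KO, Crtc2 among them. The same count was 1 of 841 (0.119%) for WT replicate 1 and 0 of 947 (0%) for WT replicate 2, each with at least 50 counts required in the other libraries. KO had the lowest count total of the 3 libraries, and the part of depth in these shares was not tested. Crtc2 is in the KO set through its WT counts, and its values were known beforehand, so nothing about Crtc2 is read from that share. The genes whose 3 values lay nearest to those of Crtc2, by Euclidean distance on log2(CPM + 1) over the 3 libraries, were Samm50 (0.13), Fance (0.24), Nup153 (0.26), Scap (0.33) and Nelfcd (0.40), each with 0 counts in KO. A KO level at or near 0 follows from this way of choosing them. Samm50 had 60 and 60 counts in WT, and Fance had 56 and 48.

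**Figure D3:**
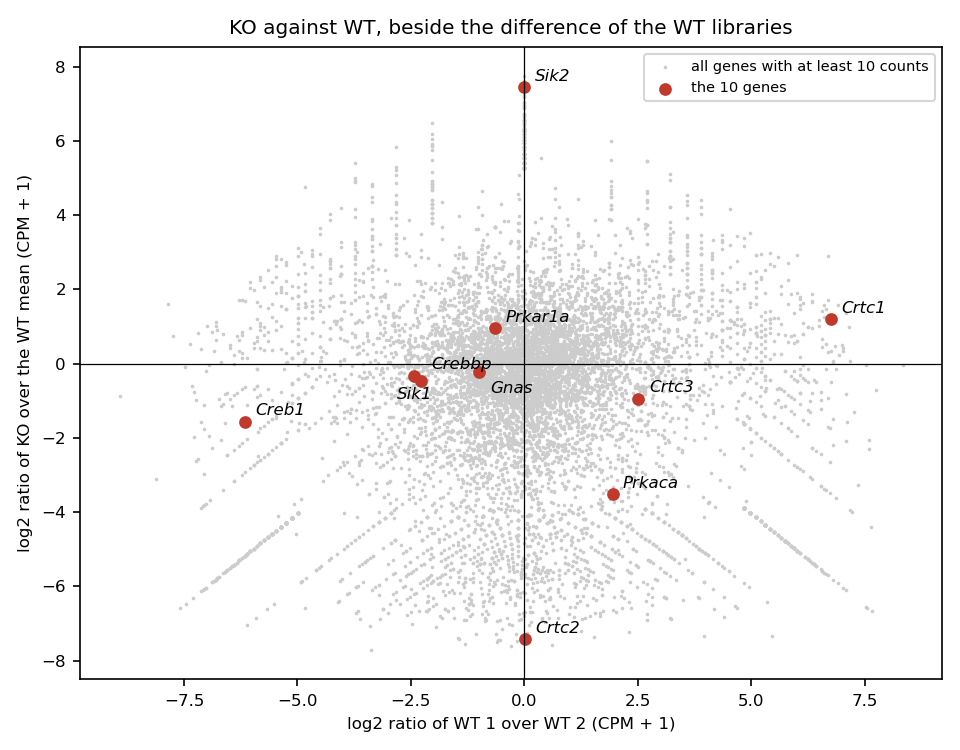
For each gene, the log2 ratio of KO over the WT mean (vertical axis, CPM + 1) against the log2 ratio of WT 1 over WT 2 (horizontal axis, CPM + 1); grey points are the 9078 genes with at least 10 counts over the 3 libraries and red points the 10 genes. Crtc2 (-7.42) and Sik2 (7.45) are the lowest and highest of the 10 genes, with almost no difference between the WT libraries, and Creb1 and Crtc1 lie far out on the horizontal axis; ratios of genes with a group at 0 depend on the 1 CPM added and are no bounds.

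By mean FPKM over the 3 libraries the genes ran in the order Gnas (518), Prkar1a (67.5), Crtc2 (43.2), Sik2 (19.8), Prkaca (16.3), Crtc3 (15.8), Crtc1 (13.8), Sik1 (5.96), Crebbp (5.14) and Creb1 (3.34). Gnas, at 432 to 680 FPKM, did not overlap with Prkar1a, at 39.8 to 100.1 FPKM. Every other neighbouring pair in this order overlapped in its range over the libraries, so their order is not separated by the spread. Neither was the order the same from library to library: Crtc2 came next after Prkar1a by mean and was listed at 0 FPKM in KO.

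In the fit over all genes (edgeR quasi-likelihood test, Benjamini-Hochberg adjustment over 7984 tested genes), all 10 genes passed the filter on low counts and 0 of 10 passed an adjusted p of 0.05. Over all tested genes 8 were called higher (0.1%) and 0 lower (0%). At an unadjusted p under 0.05, Crtc2 and Sik2 were among the 520 lower (6.51%) and 282 higher genes (3.53%). DESeq2 on the same genes, with a local dispersion trend, gave an adjusted p for 2721 of them and called 18 higher (0.662%) and 17 lower genes (0.625%) of these, with Crtc2 called among the 3 of the 10 genes that had an adjusted p, and DESeq2 on all 11402 genes with a count called 0 (0%). Sik2 passed the filter on low counts only through its KO counts, and Crtc2 only through its WT counts. For that reason, and because these contrasts were known when the list was drawn up, nothing is read from the members' calls.

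The rest of the route was described with 10 lists of 91 genes, from receptors to CREB-responsive genes, of which 67 had a count and 48 were tested. In the edgeR fit 0 of 48 passed in either direction; 1 higher and 3 lower had an unadjusted p under 0.05. DESeq2 on the same genes gave an adjusted p for 20 of the 48, of which 0 passed, and on all genes with a count 0 passed. The median log2 fold change over the 48 genes was -0.65, beside -0.31 over all 7984 tested genes, and 16 of 48 were positive, beside 3441 of 7984.

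Upstream, Adora2a was the only adenosine receptor gene with a count: 11 counts (41.6 CPM) in KO, against 22 (60.8 CPM) and 32 (98.5 CPM) in WT. Adora1, Adora2b and Adora3 had 0 counts in every library. The inhibitory alpha subunit gene Gnai2 had 132 counts (499 CPM) in KO, against 155 (429 CPM) and 214 (659 CPM) in WT. Gnai3 had 13 (49.1 CPM), against 91 (252 CPM) and 21 (64.6 CPM). Of 10 adenylyl cyclase genes 4 had a count, led by Adcy7 with 110 counts (416 CPM) in KO, against 118 (326 CPM) and 76 (234 CPM) in WT. Adcy6 had 13 counts in KO, against 109 and 8, and Adcy3 had 17, against 14 and 1. The median log2 fold change of the 3 tested cyclases was 0.61. The cAMP phosphodiesterases, which break cAMP down, had a count for 9 of 16 genes and a median of -0.60 over 6 tested. Pde4d had 32 counts in KO, against 4 and 54 in WT, Pde4b had 4, against 22 and 27, and Pde4a had 7, against 15 and 20. Pde4b and Pde4a were below both WT libraries in KO, and neither passed.

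Among the other cAMP effectors, Rapgef3, which encodes the cAMP-activated exchange factor Epac, had 54 counts (204 CPM) in KO, against 4 (11.1 CPM) and 5 (15.4 CPM) in WT. Its log2 fold change was 3.95 (SE 1.47, edgeR adjusted p 0.26), so it did not pass although KO lay far above both WT libraries; it was the 1 pathway gene higher at an unadjusted p under 0.05. Prkar2b, a regulatory subunit of the second type, had 22 counts (83.1 CPM) in KO, against 25 (69.1 CPM) and 20 (61.5 CPM). On CPM KO was above both WT libraries. The 7 tested A-kinase anchoring proteins, which tether protein kinase A to parts of the cell, had a median of -0.72, with 6 of 7 negative. Over all tested genes the median was -0.31, with 4543 of 7984 negative. Akap13 had 100 counts (378 CPM) in KO, against 165 (456 CPM) and 186 (572 CPM) in WT. Akap8 had 81 (306 CPM), against 87 (241 CPM) and 110 (339 CPM), so KO lay between on CPM. Akap9 had 34 (128 CPM), against 111 (307 CPM) and 8 (24.6 CPM). Akap10, chosen after its values were seen, had 1 count in KO, against 53 and 18.

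Beside Crebbp and Creb1, Ep300, a paralog of Crebbp, had 8 counts in KO, against 8 and 28 in WT, and Atf1, a close relative of CREB, had 2, against 19 and 12. Stk11, the kinase LKB1 that activates SIKs, had 132 counts (499 CPM) in KO, against 111 (307 CPM) and 200 (615 CPM) in WT. Hdac7, a class IIa deacetylase and SIK substrate, had 17 counts (64.2 CPM) in KO, against 153 (423 CPM) and 83 (255 CPM) in WT. Its log2 fold change was -2.36 (SE 0.996, edgeR adjusted p 0.34), below both WT libraries but not past the test. Hdac5 had 34 counts in KO, against 70 and 46. The list of Sik3, Stk11 and the deacetylases had a median of -1.57, with 5 of 6 negative. Over all tested genes the median was -0.31, with 4543 of 7984 negative. Among the negative genes, Hdac4 (2 counts in KO, against 0 and 22 in WT) and Hdac9 (0, against 18 and 0) were counted in only 1 WT library. For neither was KO below both WT libraries.

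The phosphatase calcineurin, which frees CRTC proteins, and the Ywha adaptor proteins, which hold them in the cytoplasm, had 5 positive and 5 negative members of 10 tested and a median of 0.04. Ywhae had 130 counts (491 CPM) in KO, against 96 (265 CPM) and 112 (345 CPM) in WT. Ywhaz had 72 (272 CPM), against 82 (227 CPM) and 139 (428 CPM), so KO lay between on CPM. Ywhag had 54 (204 CPM), against 86 (238 CPM) and 33 (102 CPM). The 18 cAMP- and CREB-responsive genes were mostly low: 14 had a count and 6 were tested, with a median of -1.25 and 2 of the 6 positive. Of the 18 genes, 7 had a count in KO, against 13 and 11 in WT. Of all 91 pathway genes 50 had a count in KO, against 58 and 58 in WT, while of the 16 phosphodiesterases 9 had one in KO, against 6 and 7. KO also had the fewest genes detected over the whole table. Ier2, an immediate early gene, had 81 counts (306 CPM) in KO, against 51 (141 CPM) and 12 (36.9 CPM) in WT. Fos, also an immediate early gene, ran the other way with 6 counts (22.7 CPM) in KO, against 16 (44.2 CPM) and 40 (123 CPM). Junb had 13 counts in KO, against 48 and 9. Dusp1, a phosphatase of MAP kinases chosen after its values were seen, had 0 counts in KO, against 39 and 6. Rgs2, chosen in the same way, ran opposite to Dusp1 with 23 counts in KO, against 9 and 7. None of them passed.

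**Figure D4:**
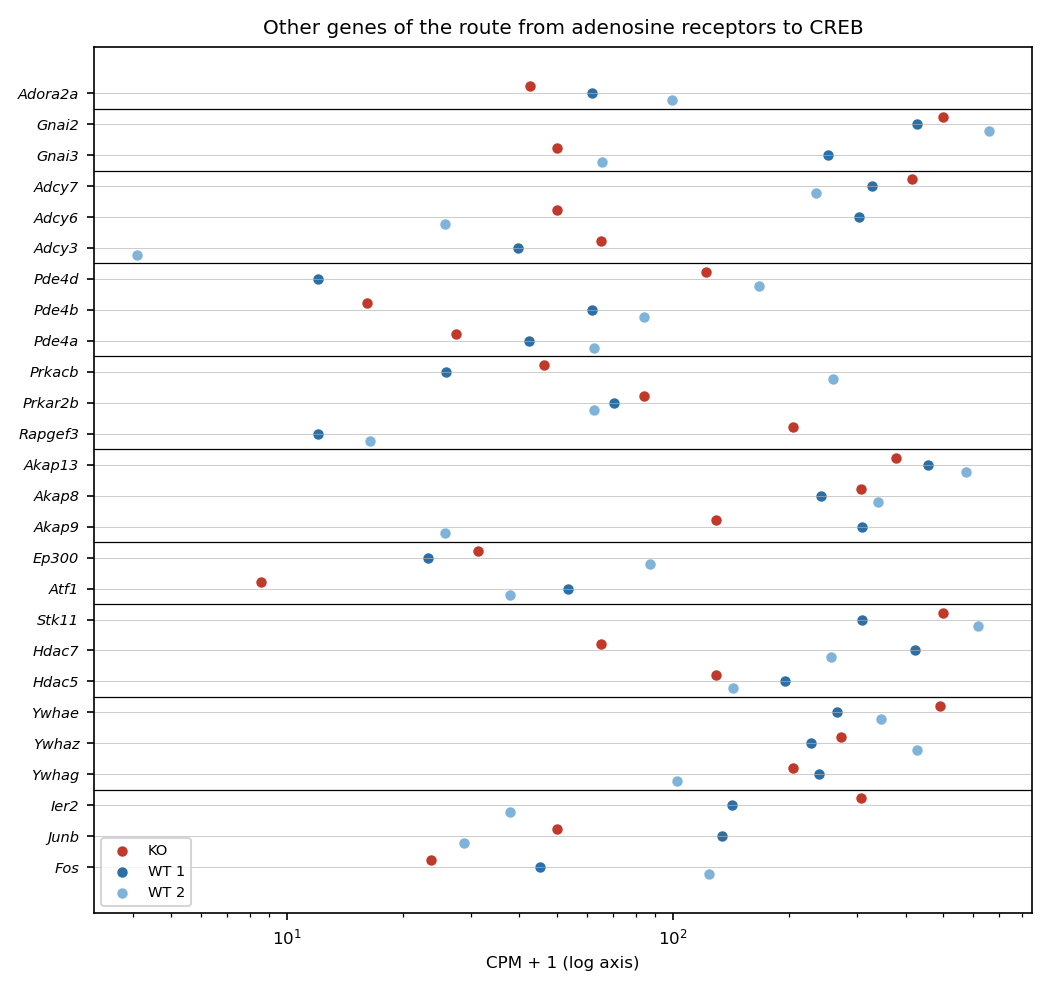
CPM + 1 (log axis) of other genes on the route from adenosine receptors to CREB, grouped by role from receptor (top) to responsive genes (bottom), in KO, WT 1 and WT 2; each point is 1 library and lines part the groups. KO lies far to the right for Rapgef3 (204 CPM, against 11.1 and 15.4) and to the left for Hdac7 (64.2 CPM, against 423 and 255), while for Adcy6, Akap9 and Pde4d the WT points are the farthest apart.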

How the data were processed

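Per the labels' protocols, RNA came from RNeasy micro columns and the libraries from NEB reagents. The deposited files hold whole-number counts per RefSeq transcript and FPKM per transcript; per the submitters' processing notes, STAR and mm10 were used, while the tools for counts and FPKM, and whether strand was used, were not given in the sources used here. Deposited FPKM values were used for levels between genes. Groups follow the sample titles. A gene's count was the highest count over its transcript rows, since rows repeat shared reads, and CPM were taken on the library totals (the tests used TMM scaling). Totals were 264704 to 361638 counts; intervals are exact (95%) and cover counting error only. edgeR 4.0.16 in R 4.3.3 tested all genes past filterByExpr (quasi-likelihood, threshold 0.05). The SE given beside its log2 fold changes is the absolute log2 fold change over the square root of the F statistic. It rests on a spread shared across genes, not on the replicates of a single gene. With 1 residual degree of freedom, the KO library is taken to vary as much as WT libraries do. DESeq2 1.42.0 was an alternative. No GC or length correction was made.

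The members and lists were chosen with earlier results of these data known. Named genes were the 10 members, Nt5e, Kit and Ly6a, up to 3 genes with the highest mean count per pathway list (at least 5 counts on average), any that passed, and the 5 genes nearest to Crtc2. Sik3, Akap10, Dusp1, Rgs2, Hdac4, Hdac9, other marker genes and the overlapping Ppp2r1b, Gm20721 and Nespas were added afterwards. Positions are from RefSeq on GRCm38.p6, the assembly of mm10, and exons and coding sequences from GENCODE M21.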

Additional observations from a re-analysis of the deposited data

How the results depend on the processing

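The sign of the log2 ratio of KO over WT was the same for all 10 genes with DESeq2 size factors, TMM factors, mean transcript counts, FPKM (highest or summed) and a pseudocount of 10 CPM. Without WT replicate 1 it changed for Crtc3 (0.80), and without WT replicate 2 for Gnas (0.36), Creb1 (3.62), Crebbp (1.07) and Sik1 (1.35). Leaving out 1 WT library, KO was below WT for 3 to 6 of the 10 genes and above for 4 to 7, against 2 and 3 with both. The 8 higher edgeR calls became 1 with mean transcript counts, 4 with no filter on low counts, 27 with at least 10 counts in every library or 50 in any, 18 with DESeq2 and 0 with DESeq2 on all genes with a count; the 0 lower calls became 104 with the stricter filter and 17 with DESeq2. With library sizes recomputed under that filter both were 0 (340 at an unadjusted p under 0.05, against 452); edgeR's prior degrees of freedom were 7.29 there and infinite without recomputing. The stricter filter tested 3992 genes and 4 of the 10 members, Crtc2 only through its WT counts, and nothing is read from its calls, which differed between fits. DESeq2 on the 7984 genes of the main edgeR test gave no adjusted p for 5263. The cause of these differences in counts of calls was not tested. No pathway gene passed in the edgeR and DESeq2 fits named here. The recomputed sizes, TMM for ratios, summed FPKM and DESeq2 on all genes were chosen after seeing the data. The edgeR and DESeq2 tests without a WT library have no residual degrees of freedom and were not run. No paired analysis was possible because the label of the KO library carries no replicate number. Depth limits genes at 0 to a bound of 3 counts.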
